A study of Mus musculus with 6 samples.

Results

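Vip and Cnr1 interneurons are inhibitory neurons that come from the caudal ganglionic eminence and are set apart here by Adarb2, which encodes the RNA-binding protein ADAR3. They were chosen by raw counts of unique molecular identifiers (UMIs, each marking 1 captured RNA molecule) in nuclei of mouse hippocampus. A barcode was kept with at least 500 genes and at most 5% of UMIs from mitochondrial genes. A member had at least 3 UMIs of Gad1 and Gad2 together, at least 3 of Adarb2, at least 2 of Vip, Cnr1, Npas1 and Col19a1 together, none of Lhx6 or Sst and at most 1 of Lamp5. The rule found 333 members among 27766 nuclei, or 21.5% of the 1550 GABAergic nuclei (those with at least 3 UMIs of Gad1 and Gad2) and 1.20% of all nuclei. There were 52 and 51 members in the Veh-CFC libraries, 50 and 68 in the HDACi-CFC libraries, 57 in Veh-Context and 55 in HDACi-Context.

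The study asked which transcripts an inhibitor of histone deacetylases (HDACs) changes in hippocampal cell types after learning. Each of the 6 libraries held nuclei of 5 pooled C57BL/6 mice aged 12 weeks, male per the protocol, so p-values measure the spread between these pools only. HDACi mice received CI-994, a class I HDAC inhibitor, at 30 mg/kg by intraperitoneal injection 1 h before the exposure, Veh mice received the vehicle (DMSO and Kolliphor in saline), and tissue was taken 1 h after the exposure. Mice of the CFC groups (contextual fear conditioning) received 2 foot shocks of 0.2 mA in the chamber, whereas Context mice saw the chamber without shock. There were 2 Veh-CFC and 2 HDACi-CFC libraries but 1 library of each treatment for Context, so the Context pair had no test. The tissue label gives the dentate gyrus beside the hippocampus, while the design text gives whole hippocampi. For the library labelled Veh-Context, the title and treatment label say vehicle and the description says HDACi. It was kept by its title, and every Context direction rests on that choice. The Context libraries carry a different Cell Ranger version in their headers from the CFC libraries, so exposure and processing cannot be told apart.

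Interneurons that express cholecystokinin and the cannabinoid receptor CB1 (encoded by Cnr1) mostly form basket-type contacts on pyramidal cell bodies, and endocannabinoids released by the pyramidal cell suppress their GABA release. Interneurons that express the vasoactive intestinal peptide (Vip) often contact other interneurons and so release pyramidal cells from inhibition. Class I HDACs remove acetyl groups from histones as parts of corepressor complexes, and blocking them raises histone acetylation.

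Members held a median of 6135 to 9264 UMIs per nucleus across the 6 libraries, and their summed counts ran from 370849 to 679919 UMIs. The lowest member depths were those of HDACi-CFC replicate 1. The median number of genes per member was 3540.5 and 3830 for the Veh-CFC pair against 2417 and 2928 for HDACi-CFC. The median mitochondrial share of members was 1.28% in HDACi-Context and 0.444 to 0.568% elsewhere. No member barcode occurred in more than 1 library, although 74 barcodes of kept nuclei did. Scrublet called 28 members doublets, and 33 members held 2 or more UMIs of the excitatory transporter gene Slc17a7. Those nuclei stay in the values below unless stated. Replicates of a group differed by more than counting noise, with a chi-square per degree of freedom of 1.83 in Veh-CFC and 2.27 in HDACi-CFC, so none was a copy of another. In sums over nuclei, fewer cells of a kind and less RNA per cell cannot be told apart.

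The genes of the rule describe the members and are given without a test. Levels in this and the next paragraphs are plain CPM, the UMIs of a gene per 1000000 UMIs of the members of that library. Adarb2 ran from 8685 to 17298 CPM in members and from 1364 to 4211 in Lamp5 nuclei. The median member held 76 Adarb2 UMIs, with quartiles of 34 and 172. Cnr1 was at 805 to 1625 CPM, and at least 1 Cnr1 UMI was seen in 313 of 333 (93.99%, exact 95% interval 90.9 to 96.3%) members. Vip was the less common of the genes in the name. It was seen in 87 of 333 (26.1%, exact 95% interval 21.5 to 31.2%) members, in 84 of them together with Cnr1. The Vip shares in nuclei that should lack the gene were 3.87% of Slc17a7 excitatory nuclei and 3.53% of oligodendrocyte nuclei, at median depths of 10358 and 2552 UMIs against 8455 in members. In 229 members Cnr1 was seen without Vip, and 17 members had neither and entered by Npas1 or Col19a1. The name therefore holds for Cnr1 in most members and for Vip in a minority at this depth. At the edges of the rule, 5 members had 3 or 4 Adarb2 UMIs and 19 had 2 UMIs of the other 4 genes together. Just outside it, 4 nuclei missed only by an Adarb2 count of 2, 7 by 1 Lhx6 UMI and 34 by having 1 UMI of the 4 genes. Those 34 held a median of 12.5 Adarb2 UMIs.

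Several genes the rule did not use were higher in members than in the other classes. Members were set beside other nuclei of the same libraries. Of these, 384 were GABAergic with at least 2 UMIs of Lhx6 and Sst together and at most 2 of Adarb2, which mark the medial eminence lineage. Another 138 were GABAergic with at least 2 UMIs of Lamp5, a neurogliaform marker, and 6461 were excitatory, with at least 3 UMIs of Slc17a7 and none of Gad1 or Gad2. Rgs12, a regulator of G protein signalling, was at 145, 252 and 315 CPM in the lowest, median and highest library of members, against at most 14.3 in Lhx6 or Sst nuclei, 24.8 in Lamp5 nuclei and 6.19 in excitatory nuclei. Every library of members lay above every library of the other classes. Cadps2, which primes dense-core vesicles, reached 552 to 1227 CPM and was at most 76.2 in either other GABAergic class and 325 in excitatory nuclei. The same order held for the ubiquitin ligase Pdzrn3, the phosphodiesterases Pde5a and Pde3a, the receptor phosphatase Ptprz1 and the growth factor Igf1. Igf1 ran from 204 to 315 CPM against at most 72.3 in the other GABAergic classes. These genes were picked because they were highest against both GABAergic classes, so their order is a description.

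Htr3a, the ionotropic serotonin receptor of caudal eminence interneurons, was at 45.3 to 127 CPM in members and at most 13.3 elsewhere. It was seen in 140 of 333 (42.04%, exact 95% interval 36.7 to 47.5%) members but in 2.34% of Lhx6 or Sst nuclei, 3.62% of Lamp5 nuclei and 0.464% of excitatory nuclei. The chemokine gene Cxcl14 (83.9 to 162 CPM) and the tachykinin gene Tac2 (30.4 to 62.6 CPM) were likewise above every library of the other classes. Other genes listed for Vip and Cck interneurons were nearly absent. Sncg had at most 4 UMIs in any library of members, Crh at most 6, Chat at most 3 and Crispld2 0. A Prox1 UMI was seen in 33.3% of members, 31.6% of oligodendrocyte nuclei and 5.47% of Lhx6 or Sst nuclei. Cck was at 286, 388 and 495 CPM in the lowest, median and highest library, above the 63.9 to 142 of Lhx6 or Sst nuclei and the 167 to 233 of Lamp5 nuclei. A Cck UMI was nevertheless seen in 54.3% of oligodendrocyte nuclei and 81.3% of excitatory nuclei, so its 77.8% in members is not above background as a share. Slc17a8, the vesicular glutamate transporter VGLUT3 found in some CCK cells, was seen in 39 of 333 (11.7%, exact 95% interval 8.46 to 15.7%) members. It was also seen in 21 of 384 (5.47%, exact 95% interval 3.42 to 8.24%) Lhx6 or Sst nuclei, in 0 of 138 Lamp5 nuclei (exact upper limit 2.64% for nuclei with a UMI) and in 0.387% of excitatory nuclei. Several genes of the medial eminence were low, but not all. The transcription factor Sox6 was at 7.35 to 41.7 CPM against 181 to 322 in Lhx6 or Sst nuclei, Satb1 at 13.5 to 77.2 against 178 to 427, and Crhbp at 0 to 6.93 against 109 to 224. Nxph1, a neurexin ligand, stayed at 207 to 690.4 CPM, below both other GABAergic classes. The channel gene Kcnc1, scaled as in the drug comparison below, was at 236 to 426 CPM in the CFC libraries of members. It was at 252 to 484 CPM in Lhx6 or Sst nuclei. Kcnc2 was at 698 to 1426 CPM in members and 1880 to 2473 in Lhx6 or Sst nuclei on the same scale.

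**Figure D1:**
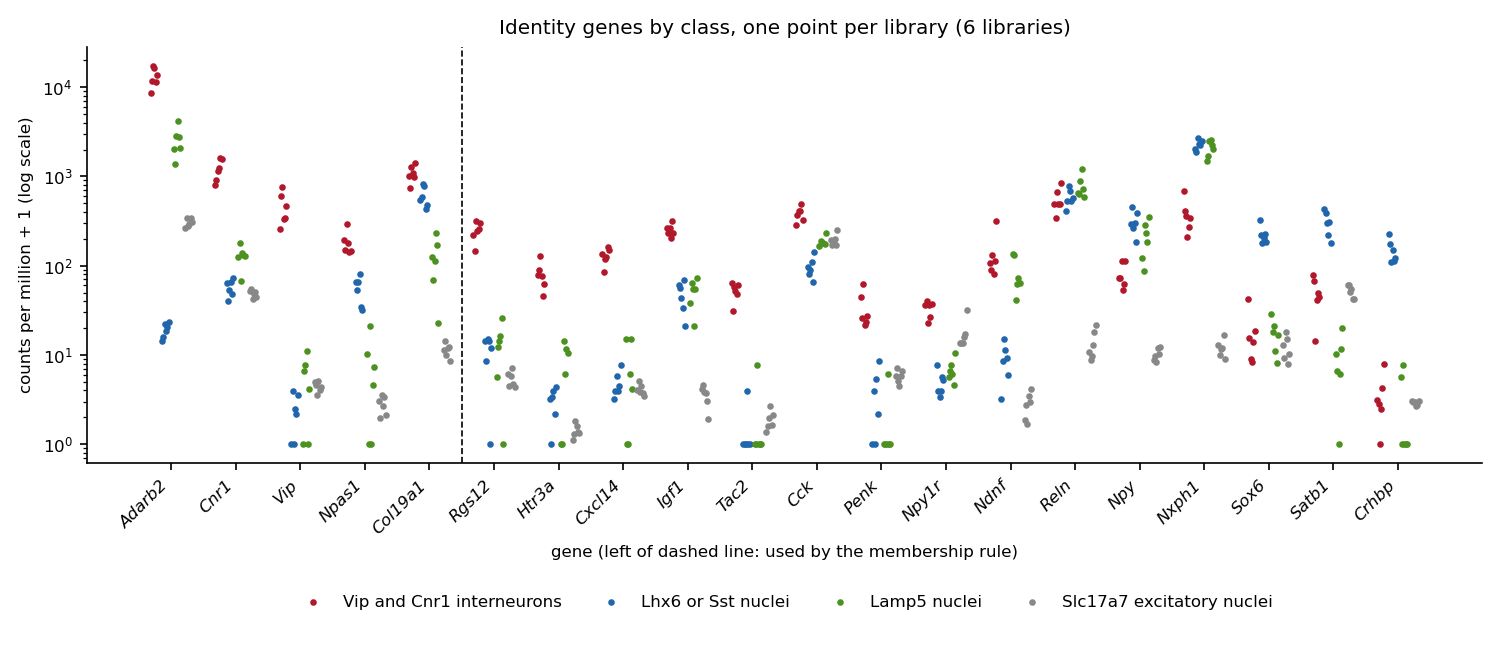
CPM plus 1 (log scale) of identity genes in Vip and Cnr1 interneurons (red), Lhx6 or Sst nuclei (blue), Lamp5 nuclei (green) and Slc17a7 excitatory nuclei (grey), with 1 point for each of 6 libraries. Genes left of the dashed line chose the members. To its right, Rgs12, Htr3a, Cxcl14, Igf1 and Tac2 lie above the other classes in every library, whereas Nxph1, Sox6, Satb1 and Crhbp lie lower than in Lhx6 or Sst nuclei.

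Members with and without a Vip UMI differed in other genes. Vip-detected members numbered 10 and 17 in the Veh-CFC pair, 19 and 18 in the HDACi-CFC pair, 12 in Veh-Context and 11 in HDACi-Context. Of 2987 genes outside the rule with at least 200 member UMIs, 50 were higher in all 6 Vip-detected sums than in any of the 6 sums of other members, and 60 were lower, together 3.68%. Wnt5b, a Wnt ligand, ran from 207 to 482 CPM in Vip-detected members and from 22.1 to 43.5 in the others. The metabotropic glutamate receptor Grm8 ran from 387 to 1481 against 60.9 to 179. The transcription factor Prox1 ran from 184 to 479 against 26.3 to 84.2, and the alpha-1 adrenergic receptor Adra1b from 126 to 323 against 25.7 to 59.4. Higher in the members without a Vip UMI were Ndnf (98.9 to 369 CPM against 0 to 59.2), the netrin-related adhesion gene Ntng1 (794 to 1525 against 11.1 to 321), Nxph1 (256 to 835 against 7.48 to 195), Reln and Npy. Ndnf, Reln and Npy are better known from neurogliaform cells than from Vip or Cck cells. The rule allows 1 Lamp5 UMI and Lamp5 RNA can be missed, so neurogliaform nuclei may be among the members, and how many are of that kind was not tested. The values for members include any such nuclei. A member without a Vip UMI can still hold Vip RNA that was not captured. The split was made on measured values and has no test.

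**Figure D2:**
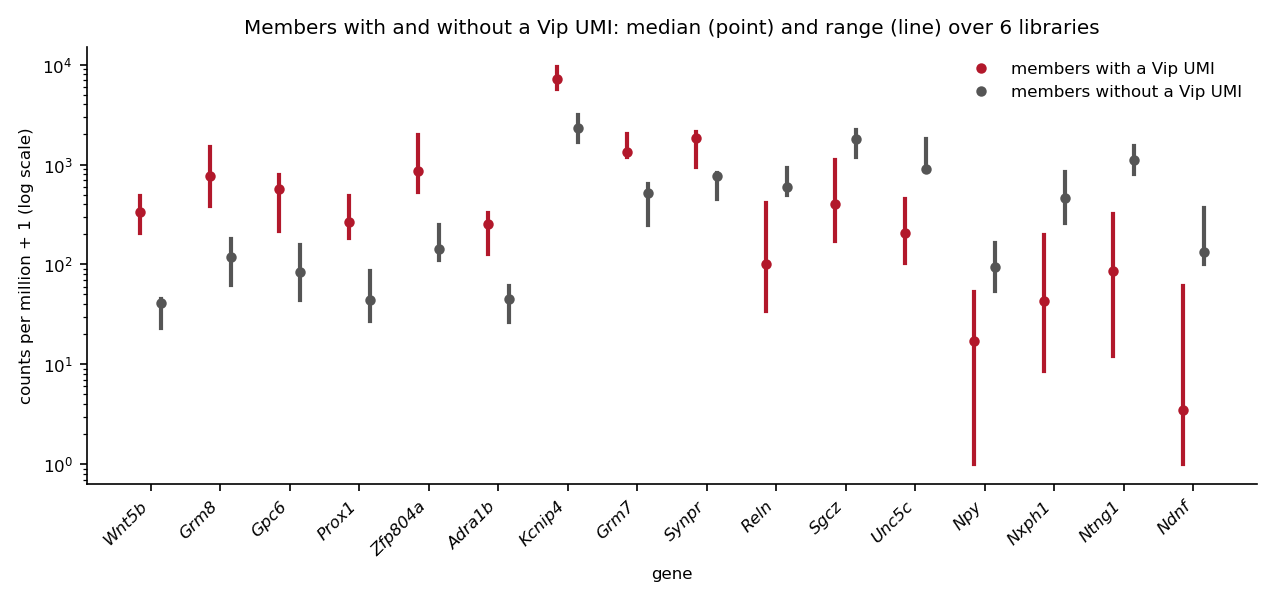
CPM plus 1 (log scale) of 16 genes outside the rule in members with a Vip UMI (red) and without (grey). Points are medians and lines ranges over 6 libraries. The lines do not overlap for any gene shown, with Wnt5b to Synpr higher and Reln to Ndnf lower in members with a Vip UMI.

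Members made up 24.4% and 20.0% of the GABAergic nuclei of Veh-CFC, against 24.3% and 24.5% for HDACi-CFC, that is 22.2% ± 3.12 (SD, n = 2) and 24.4% ± 0.133 (SD, n = 2). The ranges overlap. Between 2 and 2 libraries the smallest exact two-sided p is 0.333, so the shares were not tested. In Context the shares were 20.6% in Veh-Context and 17.1% in HDACi-Context. With every nucleus thinned to 3000 UMIs the means were 18.03% ± 3.51 in Veh-CFC and 24.9% ± 4.09 in HDACi-CFC (SD, n = 2). The rule applied again after thinning left 14 to 40 members per library, and 963 to 1220 nuclei per library were too shallow to thin, none of them a member.

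Within CFC, UMIs were summed over the members of each library and tested with edgeR's quasi-likelihood test after TMM scaling, a factor per library that sets the bulk of genes level. The adjusted p is by Benjamini-Hochberg over the 7546 genes tested, and a gene was called below 0.05. HDACi was higher for 436 genes (5.78% of those tested) and lower for 208 (2.76%), together 8.53%. Among the called genes 217 rose and 193 fell by over 2-fold. The split of directions depends on the scaling: with library-size scaling 168 genes were higher and 835 lower, and per nucleus 21 were higher and 740 lower. Relative to TMM these scalings shifted the median fold change by -0.29 and -0.46 on the log2 scale, and directions below are relative to the TMM level. Of the 644 calls, 376 were still called with library-size scaling and 229 per nucleus. Of the 4 CFC libraries, leaving out Veh-CFC replicate 1 left 233 higher and 90 lower, leaving out Veh-CFC replicate 2 left 207 and 52, leaving out HDACi-CFC replicate 1 left 593 and 234, and leaving out HDACi-CFC replicate 2 left 495 and 151. DESeq2 called 195 higher and 6 lower. On counts simulated for this comparison (7099 genes) the edgeR test recovered 26.0% of changes of 1 and 79.6% of changes of 1.5 on the log2 scale.

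From here, levels are TMM-scaled CPM in replicates 1 and 2 of Veh-CFC (with vehicle) and of HDACi-CFC (with HDACi), unless Context is named, and a fold change is log2 ± SE. The highest called genes by the naming rule included a protease inhibitor, cytoskeletal and vesicle proteins and a histamine receptor. Fam49a, which restrains actin branching (chr12:12262139-12380965, plus strand, GRCm38), was at 89.9 and 118 CPM with vehicle and 333 and 334 with HDACi, a fold change of 1.67 ± 0.22 (edgeR adjusted p = 0.00111). Both HDACi libraries were more than 2-fold above both Veh libraries. Fam49a also rose in Lhx6 or Sst, Lamp5 and excitatory nuclei, with log2 fold changes of 1.66, 1.37 and 1.28. Syt6, a synaptotagmin, went from 93.9 and 95.5 to 301 and 266 CPM (1.57 ± 0.22, edgeR adjusted p = 0.00111). Timp4, a metalloproteinase inhibitor, had 71.95 and 46.9 CPM with vehicle and 253 and 160.2 with HDACi (1.77 ± 0.29, edgeR adjusted p = 0.00308). It lies at chr6:115241892-115252205 on the minus strand, inside the body of Syn2 on the plus strand (chr6:115134902-115282006). Strand use in the counting is not given in the sources used here, so whether the reads of the 2 genes were kept apart is not known. Hrh2, the histamine H2 receptor, had 39.97 and 60.8 CPM with vehicle and 143 and 148 with HDACi (1.51 ± 0.27). Cnih3, an AMPA receptor auxiliary protein, had 25.98 and 41.7 CPM with vehicle and 98.2 and 102 with HDACi (1.55 ± 0.31). The membrane glycoprotein Gpm6b went from 119.9 and 165 to 317 and 464 CPM (1.47 ± 0.24).

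Plcl1, a phospholipase C-like protein that binds GABA-A receptor trafficking partners, rose from 53.97 and 79.9 to 149 and 252 CPM (1.61 ± 0.28, edgeR adjusted p = 0.00375). Wipf3, an actin regulator, rose by 1.60 ± 0.31 (edgeR adjusted p = 0.00605, and 0.345 without the members holding 2 or more Slc17a7 UMIs). Elfn1, a postsynaptic adhesion protein that recruits presynaptic glutamate receptors, was at 29.98 and 43.4 CPM with vehicle and 177 and 71.6 with HDACi (1.63 ± 0.38, edgeR adjusted p = 0.0147), with its 2 HDACi libraries far apart. Vip-detected members were 19.2% and 33.3% of members with vehicle and 38.0% and 26.5% with HDACi, and Elfn1 was at a median of 146 CPM with Vip against 28.4 without. Among members without a Vip UMI, an alternative added after these shares were seen, Elfn1 rose by 1.63 (edgeR adjusted p = 0.0455). In that fit all 19 genes named here as highest or lowest were called, while of all the called genes 317 of the 597 tested in it passed. Members without a Vip UMI can still hold Vip RNA that was not captured, so this fit does not remove all Vip cells. The part of the Vip share in the change of Elfn1, of the 19 genes and in the other results was not tested. Per nucleus, Cnih3, Elfn1 and Hrh2 lost their calls (adjusted p = 0.074, 0.0535 and 0.0682), while library-size scaling ended none of the 19.

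The 10 lowest named genes included a cannabinoid receptor partner, an axon guidance ligand and RNA-handling proteins. Efna5, an ephrin (chr17:62604184-62881317, minus strand), was at 148 and 151 CPM with vehicle and 28.5 and 63.1 with HDACi, and fell by 1.59 ± 0.30 on the log2 scale (edgeR adjusted p = 0.00516). The log2 fold change of Efna5 was 0.02 in Lhx6 or Sst nuclei and -1.94 in Lamp5 nuclei. The difference of the drug effect in members from these classes did not pass (-1.61 and 0.26, edgeR adjusted p = 0.101 and 0.959). Odf2, a centriole protein, was at 179.9 and 193 CPM with vehicle and 85.5 and 57.9 with HDACi (-1.43 ± 0.26). Odf2 also fell in Lhx6 or Sst, Lamp5 and excitatory nuclei (-1.51, -1.86 and -1.30). Swt1, an RNA endonuclease that works at nuclear pores, was at 102 and 102 CPM with vehicle and 41.2 and 40.9 with HDACi (-1.31 ± 0.29). In each of these 3 genes the Veh libraries differed little and the HDACi libraries were lower by more than 2-fold. Lcorl, a transcription factor, had 148 and 129 CPM with vehicle and 38.02 and 63.1 with HDACi (-1.37 ± 0.28), and overlaps Ncapg on the other strand.

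Tpr, a nuclear pore basket protein, fell by 1.28 (edgeR adjusted p = 0.00858) but did not pass without Veh-CFC replicate 1 (adjusted p = 0.0652). The vesicle trafficking protein Scfd2 fell by 1.37 (edgeR adjusted p = 0.0122, and 0.0988 without HDACi-CFC replicate 2). Fam208b, Klhl24 and the exoribonuclease Xrn2 fell by 1.28, 1.27 and 1.24. Their edgeR adjusted p-values were 0.0512, 0.0638 and 0.123 without Veh-CFC replicate 2, and 0.0787, 0.198 and 0.239 without HDACi-CFC replicate 2. Fam208b overlaps Gdi2, Tpr overlaps Odr4 and Prg4, and Wipf3 overlaps Scrn1, each on the other strand. Of these 19 genes, 14 were called whichever CFC library was left out. Outside the naming rule, and chosen after their values were seen, 2 genes were called with 1 group at 0. Jhy had 0 and 0 UMIs with vehicle and 10 and 17 with HDACi, with 6 and 17 in the Context pair. Zfp90, a zinc finger gene chosen in the same way, had 11 and 14 UMIs with vehicle and 0 and 0 with HDACi, with 5 and 1 in the Context pair.

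**Figure D3:**
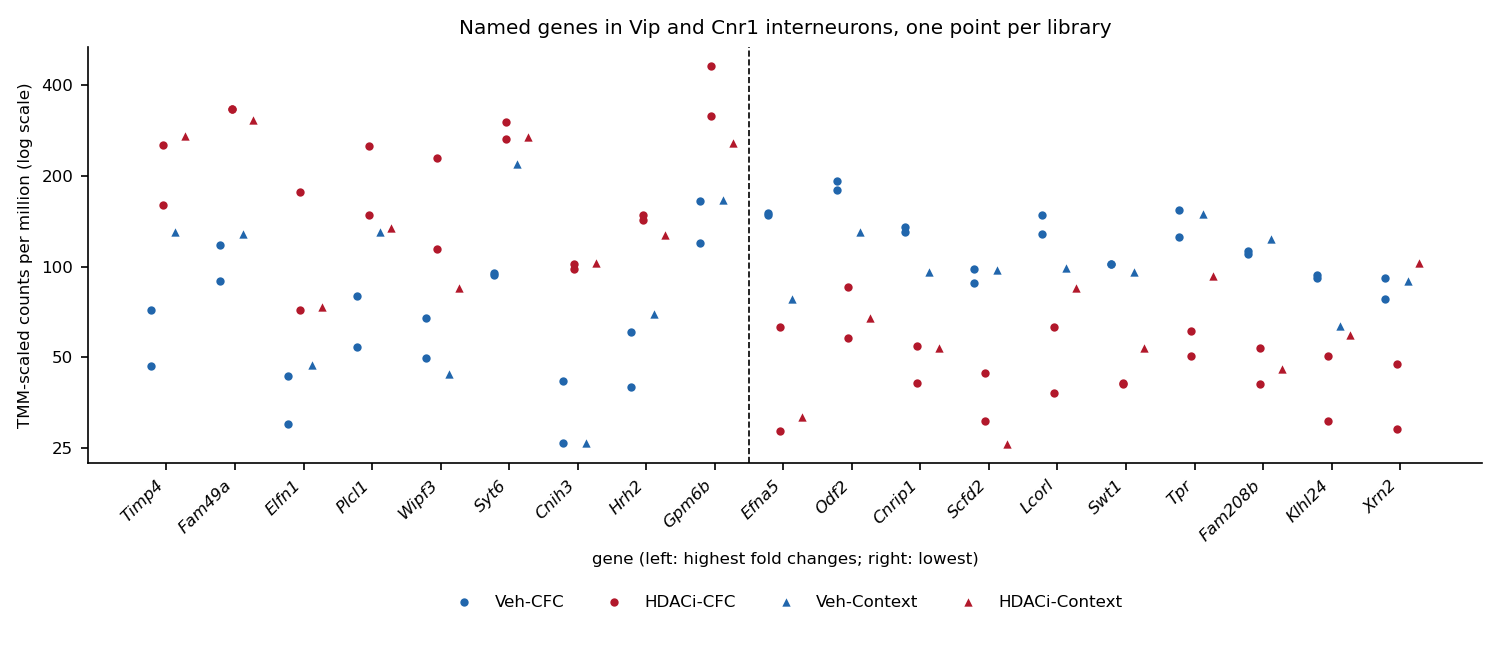
TMM-scaled CPM (log scale) of the named called genes with the highest (left of the dashed line) and the lowest fold change within CFC, with 1 point per library. Circles are CFC libraries and triangles Context libraries, blue for Veh and red for HDACi. The 2 circles of each colour do not overlap with those of the other colour, which the naming rule requires, while Xrn2 has its Context triangles in the opposite order.

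Because the rule sets floors on its own genes, they are described and their test results are not used. They stayed in the fit, where 7 were tested and 3 are counted among the 436 higher calls. In TMM-scaled CPM, Adarb2 was at 8323 and 11286 with vehicle and 20324 and 18814 with HDACi, a log2 fold change of 1.00. Cnr1 was at 772 and 877 CPM with vehicle and 1356 and 1442 with HDACi (log2 fold change 0.76). Npas1 was at 186 and 144 CPM with vehicle and 339 and 205 with HDACi. Col19a1 was at 977 and 726 CPM with vehicle and 1502 and 1253 with HDACi. For each of these genes both HDACi libraries lay above both Veh libraries, as they did for 26.1% of all tested genes (29.3% lay below). Vip, at 246 and 584 CPM with vehicle and 893 and 389 with HDACi, overlapped between the groups. The Context log2 ratios were 0.45 (95% interval 0.41 to 0.50) for Adarb2, 0.13 (95% interval 0.00 to 0.27) for Cnr1 and 0.64 (95% interval 0.38 to 0.91) for Vip, counting error only.

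Genes of the rule are left out of the counts and medians of the lists below. Over all 7546 tested genes, edgeR called 5.78% higher and 2.76% lower, and DESeq2 called 195 genes higher and 6 lower. An unadjusted edgeR p below 0.05 was seen for 1966 of the 7546 genes, counting both directions. Of 10 tested genes of the endocannabinoid system, edgeR and DESeq2 each called 1, Cnrip1. Cnrip1, a protein that binds the tail of CB1, lies at chr11:17051586-17079371 (plus strand, overlapping Plek on the other strand). It was at 129.9 and 135 CPM with vehicle and 41.2 and 54.5 with HDACi and fell by 1.42 ± 0.27 (edgeR adjusted p = 0.00605), with an adjusted p of at most 0.0244 when any CFC library was left out. Its Context pair had 59 and 27 UMIs, a log2 ratio of -0.84 (95% interval -1.55 to -0.16). The difference of its drug effect from the other classes did not pass (adjusted p = 0.542 against Lhx6 or Sst nuclei, 0.918 against Lamp5 nuclei and 0.125 against excitatory nuclei). The enzymes that make and break down 2-arachidonoylglycerol did not pass: Dagla had 0.80 ± 0.36 (edgeR adjusted p = 0.165) and Mgll 0.50 ± 0.21 (adjusted p = 0.135). Faah, which degrades anandamide, had -0.21 ± 0.31 with overlapping groups. The median fold change of the list was 0.17 against -0.02 over all tested genes.

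Of 7 tested genes for GABA synthesis and supply, edgeR called 1 and DESeq2 0, with 2 higher and 2 lower at an unadjusted edgeR p below 0.05. Slc38a2, a glutamine transporter, was at 134 and 129 CPM with vehicle and 57.03 and 59.6 with HDACi (-1.16 ± 0.26, edgeR adjusted p = 0.0123, but 0.0641 and 0.0575 without Veh-CFC replicate 1 or 2). The list median was 0.20. Of 14 GABA receptor subunits 0 were called by edgeR and 0 by DESeq2, with 2 higher and 0 lower at an unadjusted edgeR p below 0.05. The list median was -0.06. In the fit of all 6 libraries 2 were called higher, with a list median of 0.25. Over all genes that fit called 880 of 9822 higher, with a median of -0.01. In HDACi-Context 12 of the 14 were higher, with no test. Of all 6887 genes with at least 20 UMIs in the Context pair, 3451 (50.1%) were higher there. Gabrg3, among the most abundant, was at 1069 and 1079 CPM with vehicle and 1134 and 982 with HDACi within CFC, where its groups overlapped. Its Context pair had 240 and 434 UMIs, a log2 ratio of 1.14 (95% interval 0.91 to 1.38).

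Of 35 tested voltage-gated channel genes 11 rose and none fell, with a list median of 0.53. At an unadjusted edgeR p below 0.05 there were 17 higher and 0 lower, and DESeq2 called 4 higher and 0 lower. Kcnd3, an A-type potassium channel, was at 384 and 409.9 CPM with vehicle and 976 and 816 with HDACi (1.17 ± 0.19, edgeR adjusted p = 0.00308). Kcnq3, an M-current channel, was at 506 and 408 and then 1020.1 and 1021 (1.16 ± 0.19, adjusted p = 0.00308). These 2 were called whichever CFC library was left out. The T-type calcium channel Cacna1h, at 15.99 and 17.4 CPM with vehicle and 28.5 and 57.9 with HDACi, had 1.46 ± 0.43 and lost its call without Veh-CFC replicate 1, Veh-CFC replicate 2 or HDACi-CFC replicate 2 (adjusted p = 0.0917, 0.116 and 0.64). The fast-spiking channels Kcnc1 (0.75 ± 0.20) and Kcnc2 (0.67 ± 0.20) were among the 11, although they are better known from Lhx6 interneurons. Both lost the call without Veh-CFC replicate 2 (adjusted p = 0.0952 and 0.342), Kcnc1 also without Veh-CFC replicate 1 (0.193) and Kcnc2 also without HDACi-CFC replicate 2 (0.0511). In Context Kcnc2 went the other way, with 929 and 642 UMIs and a log2 ratio of -0.25 (95% interval -0.39 to -0.10), and with all 6 libraries its adjusted p was 0.144.

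Among 29 tested presynaptic genes 5 rose and none fell (list median 0.38), and DESeq2 called 2 higher. At an unadjusted edgeR p below 0.05, 10 were higher and 0 lower. Syn2, a synapsin that tethers vesicles, was at 732 and 606 CPM with vehicle and 1654 and 1672 with HDACi (1.31 ± 0.19, edgeR adjusted p = 0.00111), and its adjusted p was at most 0.00261 with any CFC library left out. Nsf, which recycles fusion complexes and was named after its values were seen, rose by 0.62. Syn1, on the X chromosome, was at 149.9 and 186 CPM with vehicle and 263 and 295 with HDACi (0.74 ± 0.21, adjusted p = 0.039), and without Veh-CFC replicate 1, Veh-CFC replicate 2 or HDACi-CFC replicate 2 the adjusted p was 0.311, 0.105 and 0.0921. The calcium sensors Doc2b (2.01 ± 0.46) and Syt7 (1.12 ± 0.32) rose but rested on few counts. Doc2b lost its call without Veh-CFC replicate 2 or HDACi-CFC replicate 2 (adjusted p = 0.0616 and 0.426), and Syt7 without Veh-CFC replicate 1 or HDACi-CFC replicate 2 (0.255 and 0.276).

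Synaptic adhesion genes gave 7 higher and 0 lower calls of 41 tested (list median 0.37), with 18 higher and 0 lower at an unadjusted edgeR p below 0.05. DESeq2 called 4 higher. Cadm1, which bridges the synaptic cleft, was at 716 and 684 CPM with vehicle and 1378 and 1169 with HDACi (0.86 ± 0.18, edgeR adjusted p = 0.00968) and was called whichever library was left out. The ephrin receptors Epha4 (1.02 ± 0.24) and Epha7 (0.97 ± 0.21) rose while the ephrin Efna5 fell. Without the members that held 2 or more Slc17a7 UMIs, Epha4 had 0.41 and Epha7 0.43 (adjusted p = 0.331 and 0.236), and with doublets removed Epha7 had 0.49 (adjusted p = 0.145). Without Veh-CFC replicate 2 or HDACi-CFC replicate 2 the adjusted p of Epha4 was 0.127 and 0.154, and without Veh-CFC replicate 1 that of Epha7 was 0.0822. Cntnap5b had 0.89 ± 0.25 and lost its call without Veh-CFC replicate 2 or HDACi-CFC replicate 2 (adjusted p = 0.352 and 0.0518). Of 21 glutamate receptor genes 5 rose and none fell (list median 0.31). DESeq2 called 4 higher, and at an unadjusted edgeR p below 0.05 there were 9 higher and 0 lower. The NMDA receptor subunit Grin2b was at 1361 and 1329 CPM and then 2699 and 2515 (0.95 ± 0.18, edgeR adjusted p = 0.00516), with an adjusted p of at most 0.00914 without any of the 4 libraries. Gria1, an AMPA receptor subunit named after its values were seen, rose by 0.65. The glutamate receptors Grik4, Grm7 and Grid1 had 1.09 ± 0.28, 0.79 ± 0.21 and 0.68 ± 0.19. Each lost its call without Veh-CFC replicate 2 (adjusted p = 0.0636, 0.0741 and 0.116). Grik4 and Grid1 also lost it without Veh-CFC replicate 1 (0.116 and 0.166), Grik4 without HDACi-CFC replicate 2 (0.324) and Grm7 without HDACi-CFC replicate 1 (0.164).

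Of 14 tested neuropeptide and peptide receptor genes edgeR and DESeq2 each called 0, with 3 higher and 0 lower at an unadjusted edgeR p below 0.05. The list median was 0.24. Cck was at 274 and 359.5 CPM with vehicle and 478 and 475 with HDACi (0.59 ± 0.20, edgeR adjusted p = 0.0751). Its groups did not overlap within CFC, but in Context it had 306 and 189 UMIs, a log2 ratio of -0.41 (95% interval -0.68 to -0.14), in the other direction. Chgb, a dense-core granule protein, had 0.35 ± 0.25 with overlapping groups. Of 12 neuromodulator receptors 2 rose and none fell by edgeR (list median 0.42), with 3 higher and 1 lower at an unadjusted p below 0.05. DESeq2 called 0 of them, with adjusted p-values of 0.0501 for Adra1b and 0.0783 for Chrna7. Adra1b was at 59.96 and 60.8 CPM and then 155 and 121 (1.16 ± 0.26, edgeR adjusted p = 0.0126). Its adjusted p was 0.0553 and 0.0741 without Veh-CFC replicate 1 or 2. Adra1b was also the gene with a strong Vip split, and among members without a Vip UMI its fold change was 1.32 (adjusted p = 0.0569). Chrna7, the alpha-7 nicotinic receptor, had 0.92 ± 0.23 (adjusted p = 0.0207) and lost its call without Veh-CFC replicate 1, Veh-CFC replicate 2 or HDACi-CFC replicate 2 (adjusted p = 0.0587, 0.209 and 0.0549). Htr3a was at 73.95 and 85.1 CPM with vehicle and 149 and 88.6 with HDACi (0.51 ± 0.28, adjusted p = 0.266).

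Most identity genes of the lineage did not pass, and neither did most of all tested genes, of which 8.53% were called. Of 23 tested genes of the Vip and Cck list, Rgs12 (0.90 ± 0.23) and Pcdh8 (1.12 ± 0.30) rose and 1 gene fell by edgeR, with a list median of 0.38. At an unadjusted edgeR p below 0.05, 6 were higher and 1 lower, and DESeq2 called 0. Rgs12 was lost without Veh-CFC replicate 2 (adjusted p = 0.264) and Pcdh8 without Veh-CFC replicate 1 or HDACi-CFC replicate 2 (0.173 and 0.297). Prox1 was at 97.9 and 104 CPM with vehicle and 149 and 126 with HDACi (edgeR adjusted p = 0.28). Calb2 was below the filter, with 7 and 2 UMIs with vehicle and 7 and 23 with HDACi. Of 8 neurogliaform genes Kit (1.46 ± 0.41) and Reln (0.74 ± 0.22) rose by edgeR, with 2 higher and 1 lower at an unadjusted p below 0.05, and DESeq2 called 0. Both lost the call without Veh-CFC replicate 2 (adjusted p = 0.248 and 0.31) and without HDACi-CFC replicate 1 (0.079 and 0.124). With doublets removed Reln had 0.37 (adjusted p = 0.225). Of 7 tested genes of the Lhx6 and Sst list, Elfn1, Kcnc1 and Kcnc2 rose and none fell by edgeR (list median 0.42). At an unadjusted edgeR p below 0.05, 3 were higher and 2 lower, and DESeq2 called 1 higher.

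Rapid activity genes had few counts in members 1 h after the exposure. The 22 genes of this list below the filter had at most 16 UMIs in any library, reached by Jun. Fos had 1 and 3 UMIs with vehicle and 1 and 0 with HDACi, and Fosb, Egr1 and Npas4 had at most 7 UMIs in any library. Arc had 0 and 5 UMIs with vehicle and 1 and 9 with HDACi. Of 24 genes on the list 2 were tested, and edgeR and DESeq2 each called 0 of them, with 1 lower at an unadjusted edgeR p below 0.05: Nr4a1 had 0.60 ± 0.35 and Jund -1.06 ± 0.44 (adjusted p = 0.294 and 0.13). Of 15 tested late activity genes 4 rose and none fell (list median 0.80), with 8 higher and 0 lower at an unadjusted edgeR p below 0.05 and 1 higher by DESeq2. Sorcs3, a sorting receptor, was at 464 and 653 CPM and then 1499 and 936 (1.11 ± 0.23, edgeR adjusted p = 0.00785) and was called with any CFC library left out. Bdnf, the neurotrophin gene, had 11.99 and 13.9 CPM with vehicle and 38.02 and 34.1 with HDACi (1.43 ± 0.43, adjusted p = 0.0461). Its Context pair had 3 and 33 UMIs, a log2 ratio of 3.75 (95% interval 2.07 to 6.10). Inhba, an activin subunit, and Nptx2, a pentraxin that clusters AMPA receptors, rose by 1.82 ± 0.50 and 1.97 ± 0.48. Bdnf and Inhba were lost under every left-out library, with adjusted p-values from 0.141 to 0.262 and from 0.111 to 0.3, and Nptx2 without Veh-CFC replicate 2 or HDACi-CFC replicate 2 (0.108 and 0.573). Homer1 had 0.20 ± 0.26 (adjusted p = 0.673).

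Transcripts of the class I HDACs did not pass. Hdac1 was at 49.97 and 50.4 CPM with vehicle and 53.9 and 42.6 with HDACi, Hdac2 at 29.98 and 27.8 CPM with vehicle and 22.2 and 28.97 with HDACi, Hdac3 at 85.9 and 69.5 CPM with vehicle and 114 and 114 with HDACi, and Hdac8 at 149.9 and 119.8 CPM with vehicle and 105 and 124 with HDACi. Their edgeR adjusted p-values were 0.882, 0.881, 0.172 and 0.626, and Hdac3 was the gene with an unadjusted p below 0.05. DESeq2 called 0 of them. Of 12 other HDACs and sirtuins Hdac9 rose, from 664 and 651 to 1464 and 1024 CPM (0.91 ± 0.20, edgeR adjusted p = 0.0106), and was called whichever library was left out. Of 12 acetyltransferases edgeR and DESeq2 each called 0, with 1 higher and 4 lower at an unadjusted edgeR p below 0.05. The list median was -0.37. The most abundant, Ncoa1 and Ncoa2, had 0.51 ± 0.19 and 0.25 ± 0.20. Corepressor subunits moved both ways, with 3 higher and 2 lower of 25 by edgeR and 1 higher and 0 lower by DESeq2. Tbl1x, which holds corepressor complexes on chromatin, rose from 144 and 179 to 449.9 and 329 CPM (1.25 ± 0.22, adjusted p = 0.00397). The histone demethylase Kdm1a, named after its values were seen, rose by 1.10. Sap130 and Sin3a, of the SIN3 complex, fell by 1.86 and 1.80 (adjusted p = 0.0132 and 0.0282) at few counts. Sap130 did not pass without Veh-CFC replicate 2 or HDACi-CFC replicate 2 (adjusted p = 0.0725 and 0.156), and Sin3a did not pass under any left-out library (0.0674 to 0.231).

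**Figure D4:**
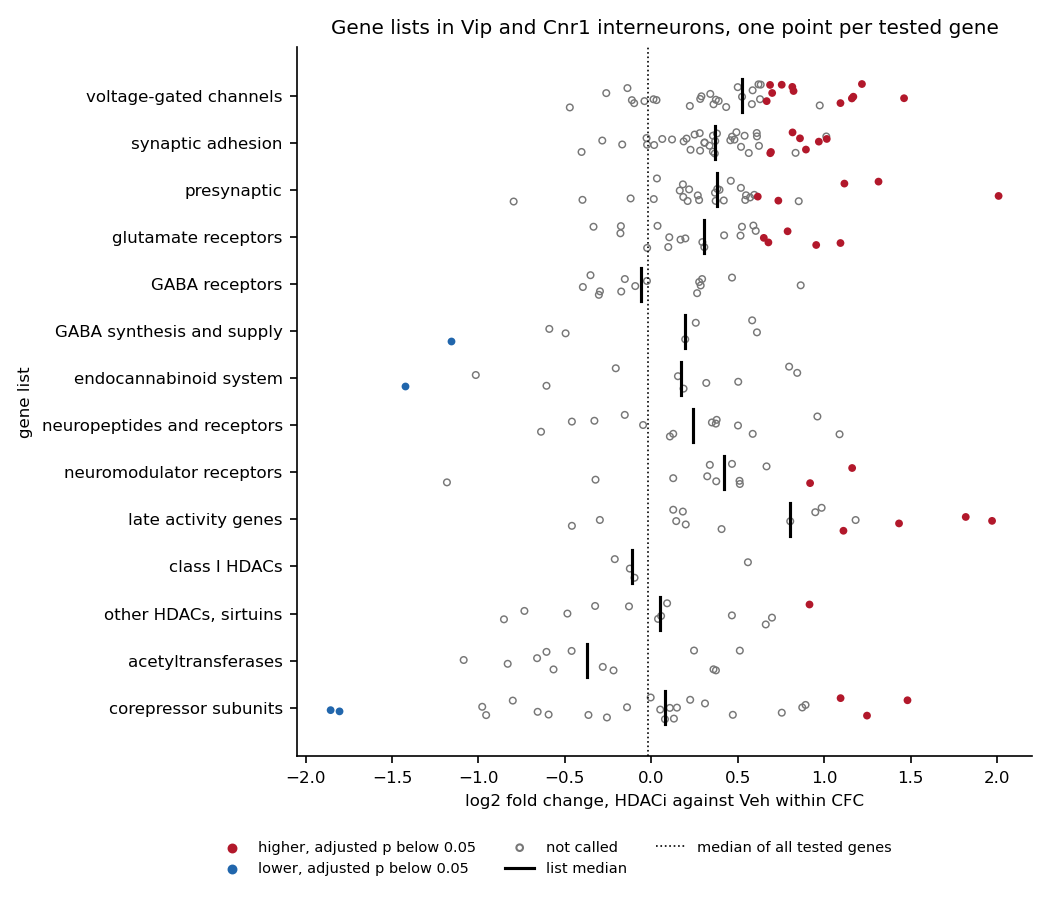
Log2 fold change of HDACi against Veh within CFC for each tested gene of 14 lists, with called genes filled (red higher, blue lower) and others open. Thick lines are list medians and the dotted line is the median of all 7546 tested genes (-0.02). Voltage-gated channels, with 11 of 35 called higher, lie right of the dotted line for the most part, and acetyltransferases have a median of -0.37.

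Markers of other cell types moved with some of these groups. The summed level of 8 excitatory markers in members was 500.6 and 530.4 CPM with vehicle and 812 and 1087 with HDACi within CFC, and 537 and 909.8 in the Context pair, against 2122 to 2972 in excitatory nuclei. Of the 8 markers 7 were detected, Neurod1 was at 0, and most of the rise was in Camk2a, from 309 and 329 to 639 and 735 CPM (log2 fold change 1.38, edgeR adjusted p = 0.00111). Slc17a7 itself was at 66.7 and 51.8 CPM with vehicle and 48.5 and 79.4 with HDACi within CFC. Without the members that held 2 or more Slc17a7 UMIs, 388 genes were higher and 195 lower, and 447 of the 595 earlier calls tested in that fit were still called. Of the 59 called genes named, 44 were still called, 10 did not pass and 5 were below the filter. The fold changes of 6 of the 10 shrank by over 1.5 times: 0.41 for Epha4, 0.43 for Epha7, 0.48 for Syt7, 0.40 for Syn1, 0.58 for Grik4 and 0.65 for Wipf3 (edgeR adjusted p = 0.331, 0.236, 0.435, 0.241, 0.216 and 0.345). The 8 oligodendrocyte markers, all detected, summed to 139.7 and 152 CPM with vehicle and 191 and 312 with HDACi within CFC, against 18317 or more in oligodendrocyte nuclei. The 7 granule cell markers summed to 442 and 557 CPM with vehicle and 480.0 and 989.8 with HDACi within CFC, and of these Pdzd2 (log2 fold change 1.33) and Stxbp6 (1.12) were called. Stxbp6 had 0.13 without HDACi-CFC replicate 2 (edgeR adjusted p = 0.874) and a DESeq2 adjusted p of 0.403, and its groups overlapped. The part of these levels in the results was not tested.

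The level that counts as no change depends on the scaling, and the medians of lists moved with that of all genes. With library-size scaling the median over all genes was -0.32 and the list medians were 0.23 for voltage-gated channels, 0.51 for late activity genes, 0.09 for presynaptic genes, 0.07 for adhesion genes and 0.01 for glutamate receptors. Per nucleus the median over all genes was -0.49 and those of the same lists were 0.06, 0.34, -0.08, -0.11 and -0.16, below 0 for the last 3 and above that of all genes for each. The medians of the endocannabinoid, GABA supply and neuropeptide lists were -0.13, -0.10 and -0.06 under the former scaling, against -0.31, -0.27 and -0.23 under the latter. Those of neuromodulator receptors and the Vip and Cck list were -0.05 and -0.08 per nucleus. Library-size scaling left 3 channels, 2 presynaptic genes, 2 late activity genes, 2 adhesion genes and 1 glutamate receptor higher, against 1 adhesion gene and 1 late activity gene lower. Per nucleus 1 presynaptic gene was higher and no other gene of these 5 lists was called. For acetyltransferases, 4 genes were lower under the former scaling and 2 under the latter.

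Within Context the 2 libraries share no sample with the CFC comparison. Of the called genes with at least 20 UMIs in the pair, 384 of 428 that were higher within CFC were also higher in HDACi-Context, and 148 of 159 that were lower were also lower. The same sign was seen for 90.6% of these 587 genes, for 67.6% of 6300 genes not called and for 69.6% of all 6887. Over all 6887 genes, 304 (4.41%) were more than 2-fold higher in HDACi-Context and 550 (7.99%) more than 2-fold lower, with no test. Of the 57 called genes named that had at least 20 UMIs in the pair, 33 had an interval on the same side of 0 as within CFC and 20 an interval that includes 0. The other 4, Kcnc2, Mcc, St18 and Tnfaip8l3, had an interval on the other side. Fam49a had 79 and 155 UMIs in the pair, a log2 ratio of 1.26 (95% interval 0.86 to 1.67). Syn2 had 451 and 687 UMIs, a ratio of 0.89 (95% interval 0.72 to 1.07), and Grin2b had 933 and 1381, a ratio of 0.85 (95% interval 0.73 to 0.97). Timp4 had 80 and 137 UMIs, a ratio of 1.06 (95% interval 0.65 to 1.48). Efna5 was lower in HDACi-Context, with 48 and 16 UMIs and a ratio of -1.30 (95% interval -2.21 to -0.46), as was Scfd2, with 60 and 13 UMIs and a ratio of -1.92 (95% interval -2.91 to -1.04). Elfn1, Syt6, Plcl1, Lcorl, Klhl24 and Xrn2 had intervals that include 0, for example 0.05 (95% interval -0.44 to 0.54) for Plcl1 and 0.21 (95% interval -0.37 to 0.78) for Xrn2. The intervals cover counting error only.

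**Figure D5:**
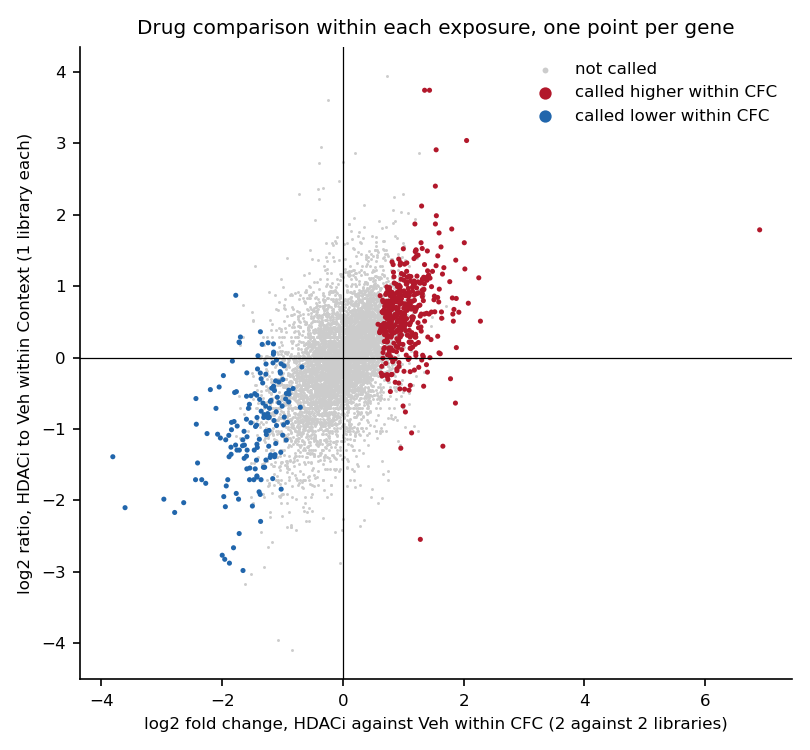
Log2 fold change of HDACi against Veh within CFC (x axis, 2 against 2 libraries) and log2 ratio within Context (y axis, 1 library each) for genes with at least 20 UMIs in the Context pair. Red genes were called higher and blue genes lower within CFC. Most red points lie above 0 (384 of 428) and most blue points below 0 (148 of 159) on the y axis.

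The difference of the drug effect between the exposures was tested as an interaction over all 6 libraries. It passed for 3 of 9822 genes (0.0305%), with 469 at an unadjusted p below 0.05. With 1 library per Context group, the test borrows its spread from the CFC replicates. Tnfaip8l3, a lipid transfer protein, was at 25.98 and 41.7 CPM with vehicle and 50.7 and 106 with HDACi, and had 50 and 7 UMIs in Veh-Context and HDACi-Context. Mcc, a Wnt pathway regulator, was at 59.96 and 71.2 CPM with vehicle and 152 and 111 with HDACi within CFC and had 109 and 37 UMIs in Context. St18, at 17.99 and 17.4 CPM with vehicle and 50.7 and 59.6 with HDACi within CFC and 52 and 18 UMIs in Context, is also one of the oligodendrocyte markers whose sums are given above. All 3 genes were higher with HDACi within CFC and lower with it in Context. With a CFC library left out, the CFC fold change ran from 0.60 to 1.69 for Tnfaip8l3, 0.79 to 1.25 for Mcc and 1.55 to 1.78 for St18. None of them kept its CFC call under every left-out library. In the fit of all 6 libraries with exposure as a covariate, their fold changes were 0.25, 0.19 and 0.40 (edgeR adjusted p = 0.735, 0.725 and 0.522). Library-size scaling ended the CFC calls of Tnfaip8l3 and Mcc (edgeR adjusted p = 0.0714 and 0.0991). DESeq2 did not call Mcc within CFC (adjusted p = 0.123).

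The drug effect in members was also set against that in other nuclei of the same 4 CFC libraries, with the library as a block and TMM factors within each class. Against Lhx6 or Sst GABAergic nuclei the difference passed for 2 of 8539 genes (0.0234%), with 546 at an unadjusted p below 0.05. Btbd11 was at 234 and 224 CPM with vehicle and 707 and 447 with HDACi in members, and at 202 and 211 CPM with vehicle and 160.3 and 137 with HDACi in Lhx6 or Sst nuclei. The difference was 1.79 ± 0.27 on the log2 scale (edgeR adjusted p = 0.0134). Plcl1 was at 58.8 and 113 CPM with vehicle and 57.1 and 66.2 with HDACi in those nuclei, against the rise in members, a difference of 2.13 ± 0.34 (adjusted p = 0.0169). On counts simulated for that comparison (7377 genes), the fit found 3 of 98 differences of 1 and 25 of 100 of 1.5 (log2). Differences of that size were thus mostly missed in the simulation. It drew the 2 classes independently, with the dispersions of members for both, so the share missed in the data is not known. Leaving out a CFC library gave between 6 and 33 genes.

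Against excitatory nuclei the difference passed for 139 of 15172 genes (0.916%), with 1334 at an unadjusted p below 0.05. Ttc28, at 156 and 188 CPM with vehicle and 453 and 397 with HDACi in members, was at 27.7 and 30.2 CPM with vehicle and 19.9 and 19.9 with HDACi in excitatory nuclei, a difference of 1.87 ± 0.23 (edgeR adjusted p = 2.28e-11). Ptpn4, a phosphatase, was at 174 and 165 CPM with vehicle and 364 and 208 with HDACi in members and at 112 and 102 CPM with vehicle and 52.98 and 63.6 with HDACi in excitatory nuclei (1.59 ± 0.23, adjusted p = 1.38e-07). Efna5, which fell in members, was at 66.6 and 48.9 CPM with vehicle and 61.6 and 50.96 with HDACi in excitatory nuclei (-1.49 ± 0.28, adjusted p = 0.000271). Sorcs3 was at 269 and 282 CPM with vehicle and 284 and 308 with HDACi there (1.02 ± 0.21, adjusted p = 0.00114). Leaving out a CFC library changed the number of such genes to between 39 and 115.

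Against Lamp5 nuclei, of which each CFC library held 20 to 22, the difference passed for 12 of 6307 genes (0.19%), with 480 at an unadjusted p below 0.05. Epha7 rose in members but was at 331 and 174 CPM with vehicle and 67.99 and 71.4 with HDACi in Lamp5 nuclei (2.79 ± 0.46, edgeR adjusted p = 0.00659). Leaving out a CFC library gave between 14 and 66 genes.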

How the data were processed

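Nuclei of 6 libraries were profiled with droplet 3′ RNA sequencing. The authors deposited raw UMI counts per gene and barcode, made with Cell Ranger 3.0.1 for CFC and 3.0.2 for Context per the file headers, and on mm10 per the submitters' processing notes, which also name Seurat 4.0.3. Whether intronic reads were counted, and with which strand, is not given in the sources used here. The deposited counts were summed over members per library. Genes kept by filterByExpr were tested with edgeR 4.0.16 (R 4.3.3), using TMM factors, the quasi-likelihood test on the 4 CFC libraries and Benjamini-Hochberg adjustment. Differences between classes used a joint fit with the library as a block, and the exposure interaction used all 6 libraries. The Context pair has a log2 ratio with an exact 95% conditional binomial interval. Doublets were called with Scrublet in scanpy 1.11.5 and kept in the main values.

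Named genes were the 10 highest and 10 lowest called genes whose log2 CPM averaged 6 or more and whose groups were apart (393 qualified), up to 4 called members of each list or otherwise the 2 most abundant, and a preset group of genes. Some genes this selects are not reported here. For tests of differences they were the named genes called there and up to 5 others. Gene positions are from GENCODE M21 (GRCm38). The members and lists were chosen with earlier results of these data known. Alternatives were library-size and per-nucleus scaling, no filter, DESeq2 1.42.0, each library left out, all 6 libraries, a replicate block and stricter membership. Methods were tested on simulated data.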

Additional observations from a re-analysis of the deposited data

Results flagged for a closer look

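Each result here is a drug effect that differed between exposures or between classes of nuclei by an edgeR test of the difference itself. Differences are on the log2 scale with adjusted p over all genes of that test. Between exposures, the effect within CFC minus that within Context was 3.85 for Tnfaip8l3 (adjusted p = 0.00113), 2.93 for St18 (adjusted p = 0.0166) and 2.26 for Mcc (adjusted p = 0.0241). Their levels are in the report, and each Context group is 1 library.

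Against Lhx6 or Sst nuclei the differences were 1.79 for Btbd11 (adjusted p = 0.0134) and 2.13 for Plcl1 (adjusted p = 0.0169). Against Lamp5 nuclei, Epha7 differed by 2.79 (adjusted p = 0.00659) and Stxbp6, also a granule cell marker, by 3.32 (adjusted p = 0.0227). Stxbp6 was at 73.95 and 92.1 CPM with vehicle and 88.7 and 252 with HDACi in members, with overlapping groups and a fold change of 0.13 without HDACi-CFC replicate 2 (adjusted p = 0.874), and at 128 and 63.9 CPM with vehicle and 15.1 and 23.8 with HDACi in Lamp5 nuclei. Gnal, a G protein subunit, differed by 2.63 (adjusted p = 0.0254) and was at 87.9 and 97.3 CPM with vehicle and 124 and 153 with HDACi in members, where its own fold change did not pass (adjusted p = 0.127). In Lamp5 nuclei it was at 161 and 168 CPM with vehicle and 15.1 and 59.5 with HDACi. Mkl2, a coactivator of serum response factor, differed by 2.64 (adjusted p = 0.0334) at 149.9 and 155 CPM with vehicle and 120.4 and 322 with HDACi in members and 246 and 139 CPM with vehicle and 52.9 and 35.7 with HDACi in Lamp5 nuclei. Chrm2, a muscarinic receptor, had a difference of -4.74 (adjusted p = 0.0227), with a Lamp5 library at 0, so its size depends on the prior count. Chrm2 was at 104 and 113 CPM with vehicle and 44.4 and 116 with HDACi in members and 14.2 and 0 CPM with vehicle and 257 and 95.2 with HDACi in Lamp5 nuclei.

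Against excitatory nuclei the differences of genes described in the report were 1.87 for Ttc28 (adjusted p = 2.28e-11), 1.59 for Ptpn4 (adjusted p = 1.38e-07), -1.49 for Efna5 (adjusted p = 0.000271), 1.02 for Sorcs3 (adjusted p = 0.00114) and 1.02 for Plcl1 (adjusted p = 0.0231). Elfn1 differed by 1.75 (adjusted p = 0.0233) and was at 4.16 and 4.38 CPM with vehicle and 3.58 and 4.03 with HDACi in excitatory nuclei, a low level. In Lhx6 or Sst nuclei Elfn1 was at 113 and 102 CPM with vehicle and 310 and 241 with HDACi, a log2 fold change of 1.34. The difference of members from those nuclei did not pass (0.29, edgeR adjusted p = 0.945). Cntnap5b differed by 0.93 (adjusted p = 0.0367) at 237 and 208 CPM with vehicle and 210.4 and 236 with HDACi there, and St18 by 1.74 (adjusted p = 0.00437) at 85.3 and 107 CPM with vehicle and 105 and 87.7 with HDACi. Parp8, an ADP-ribosyltransferase, had a difference of -1.55 (adjusted p = 0.00076) at 109.9 and 78.2 CPM with vehicle and 31.7 and 44.3 with HDACi in members and 117 and 109 CPM with vehicle and 145 and 144 with HDACi in excitatory nuclei. Plpp4, a lipid phosphatase, differed by 1.56 (adjusted p = 0.00367) at 73.95 and 29.5 CPM with vehicle and 120.4 and 101 with HDACi in members and 11.2 and 14.96 CPM with vehicle and 10.8 and 9.40 with HDACi in excitatory nuclei. Within members the calls of Parp8 and Plpp4 were lost without Veh-CFC replicate 1 (adjusted p = 0.166) and without Veh-CFC replicate 2 (adjusted p = 0.45). Groups of fewer than 4 libraries were not screened for single libraries far from the others.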

How the results depend on the processing

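The 644 calls within CFC (436 higher, 208 lower) became 1003 (168 higher, 835 lower) with library-size scaling, 761 (21 higher, 740 lower) per nucleus, 201 (195 higher, 6 lower) with DESeq2, 1331 (880 higher, 451 lower) with all 6 libraries and 341 (234 higher, 107 lower) in members without a Vip UMI. Leaving out 1 library gave 259 to 827 calls, 207 to 593 higher and 52 to 234 lower. No filter on low counts, doublets removed, Adarb2 of at least 5 UMIs and Slc17a7-bearing members removed stayed within 1.5 times. With the replicate block there were 1073 calls (698 higher, 375 lower), and none of the 59 called genes named was lost. Deviations of same-numbered libraries correlated at 0.075 over 3227 genes. Counting noise in the sums lowers such a correlation, so it cannot show whether the replicate numbers pair the libraries. Nuclei kept in Veh-CFC and HDACi-CFC were 3797 and 3743 for replicate 1, and 4657 and 5098 for replicate 2. Whether same-numbered libraries shared a batch was not tested. With library-size scaling the exposure interaction gave 5 genes and the comparison with Lamp5 nuclei 27. Leaving out a library gave 3 to 12 genes for the interaction, 6 to 33 against Lhx6 or Sst nuclei, 14 to 66 against Lamp5 nuclei and 39 to 115 against excitatory nuclei. The member share moved to 18.03% in Veh-CFC with thinning, and in HDACi-CFC to 24.9% with thinning, 24.8% without doublets and 24.1% at 5 Adarb2 UMIs. It was 20.0 to 24.4% and 24.3 to 24.5% with a library left out. Of the 59 called genes named, 21 lost the call with library-size scaling and 38 per nucleus. DESeq2 called 26, did not call 16 and gave no adjusted p for 17, and 24 were called whichever library was left out. No call reversed among them. Of named genes not called, with library-size scaling Homer1 and Ncoa2 turned to -0.10 and -0.0517. Per nucleus Chgb, Homer1, Ncoa2 and Prox1 turned to -0.10, -0.28, -0.24 and -0.0583. With all 6 libraries Chrm2 and Gabrg3 turned to 0.41 and 0.41. Without Slc17a7-bearing members Homer1 and Mkl2 turned to -0.25 and -0.24. In members without a Vip UMI Hdac1 and Hdac2 turned to 0.21 and 0.27. With a library left out, fold changes of genes that turned ran from -1.24 to 0.13 for Chrm2, from -0.48 to 0.00305 for Faah, from -0.0907 to 0.12 for Gabrg3, from -0.20 to 0.14 for Hdac1, from -0.33 to 0.0462 for Hdac2 and from -0.30 to 1.12 for Mkl2. The cause was not tested. Depth limits genes below about 20 UMIs in a library sum, such as Fos and Npas4.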

Other observations

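Members also held low levels of genes of other non-neuronal cells and of Cajal-Retzius cells. In plain CPM, 8 astrocyte markers summed to 599 and 230.4 for Veh-CFC, 305 and 279 for HDACi-CFC, 522 for Veh-Context and 225 for HDACi-Context. The 8 microglia markers summed to 307 and 182, 108 and 193, 407 and 288 in the same order. The 7 vascular markers ran from 35.6 to 223, with the highest value in Veh-CFC replicate 2, and the 5 markers of oligodendrocyte precursors ran from 21.6 to 60.7. All markers of these 4 lists were detected. The 6 markers of Cajal-Retzius cells, reelin-secreting neurons, summed to between 443 and 1182, of which Reln gave 343 to 840.4, and Lhx1 was at 0. Within CFC the called genes among the non-neuronal markers, those of oligodendrocytes included, were Mbp (1.88 on the log2 scale), St18 and Vcan (-2.05).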
